A study of Mus musculus with 9 samples.

Results

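Aminoacyl-tRNA synthetases, the enzymes that join each amino acid to its transfer RNA, were examined in primary myoblasts given 2 levels of glycine. The genes were 38 rows of the deposited table taken by their symbol, of 53715 gene IDs in all. They were 20 cytosolic synthetase genes, 16 mitochondrial ones, whose symbols end in 2, and the scaffold genes Aimp1 and Aimp2. Gars and Kars serve both compartments and were counted with the cytosolic genes. Genes with at least 1 TPM in at least 3 libraries were tested, which left 33 of the 38 and 10049 of all IDs. None of the 33 reached this filter through libraries of 1 group alone. TPM is a measure of transcript abundance that is scaled for gene length and sums to the same total in each library.

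The cells were mouse primary myoblasts, precursors of muscle fibres, at passage 1. All came from the strain C57BL/10ScSn-Dmdmdx/J, whose dystrophin gene is mutated, so both groups carry that mutation and no group with intact dystrophin was compared. The medium held 0.2 mM glycine for 3 libraries and 0.8 mM glycine for 6, and the question is which genes differ in expression between these levels. Nothing in the labels ties a library to its own culture or animal. The p-values therefore speak only of variation among these libraries, part or all of which may be technical. In the titles, all libraries of a glycine level share a library prefix, which differs between the levels. Any batch that went with this prefix cannot be told apart from the glycine level. The replicate number after the prefix restarts at each level.

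Each cytosolic synthetase loads 1 amino acid onto its transfer RNAs for the ribosomes of the cytoplasm, except Eprs, a fused enzyme for glutamate and proline. A separate set of nuclear genes encodes the enzymes that are imported into mitochondria and serve the translation of mitochondrially encoded proteins. When an amino acid runs short, uncharged transfer RNA activates the kinase GCN2 (Eif2ak4), which leads to more of the transcription factor ATF4, and a number of cytosolic synthetase genes are known targets of ATF4. In vertebrates several synthetases are held with scaffold proteins in the multisynthetase complex.

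Of all genes tested, 16.7% rose and 9.81% fell from 0.2 to 0.8 mM glycine (limma on log2(TPM + 1), adjusted p under 0.05), 26.6% in either direction. By that test 63.1% of the genes that passed rose, against 52.6% with scaling by median ratios and 49.8% with quantile normalization. Myoblast markers were present and higher at 0.8 mM: 7 of 8 rose, and their summed level was 410 to 479 TPM at 0.2 mM and 906 to 1130 TPM at 0.8 mM. Markers of other cells were present too. The 14 macrophage and leukocyte markers summed to 1880 to 2050 TPM at 0.2 mM and 2070 to 2520 TPM at 0.8 mM, of which 4 rose and 1, Cd68, fell among 12 tested (1 that rose, Itgam, reached the filter only through 0.8 mM libraries), and the T cell marker Cd3e was at 0 in every 0.2 mM library. The 9 fibroblast and fibro-adipogenic markers summed to 2260 to 2630 and 2630 to 3200 TPM, of which 5 rose and 0 fell among 8 tested, and Tcf21 was at 0 in every library. The 6 endothelial markers summed to 4.73 to 5.14 and 9.55 to 12.8 TPM, and the 3 tested rose, but Cdh5 and Pecam1 reached the filter only through 0.8 mM libraries, where they are higher. The macrophage, fibroblast and myoblast sums rest mainly on a few genes and do not measure the amount of a cell type. On average at 0.2 and 0.8 mM, Fcer1g held 949 and 888 TPM, Lyz2 588 and 1010 TPM and Dcn 1880 and 1690 TPM. Among the myoblast markers, Myog held 247 and 523 TPM and Des 104 and 356 TPM. The part of these markers' cells in the synthetase results was not tested, and fewer cells of a type cannot be told apart from less RNA per cell.

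At 0.8 mM glycine the cytosolic synthetase genes stood lower and the mitochondrial ones did not pass in either direction. Of the 20 cytosolic genes, 13 fell, 0 rose and 7 did not pass, beside 9.81% that fell among all genes. Of the 11 mitochondrial genes tested, 0 fell and 0 rose. The median log2 fold change, 0.8 minus 0.2 mM, was -0.56 over the cytosolic genes, -0.01 over the mitochondrial genes tested and 0.06 over all genes tested. A log2 fold change below 0 was found for 16 of the 20 cytosolic and 6 of the 11 mitochondrial genes, beside 43.9% of all genes. The libraries of the groups did not overlap for 15 cytosolic genes, 14 lower and 1 higher at 0.8 mM, beside 28.2% of all genes in either direction and 10.6% lower at 0.8 mM. No mitochondrial gene tested was without overlap. Summed over the 20 cytosolic genes, the level was 498 ± 11.8 TPM (SD, n = 3) at 0.2 mM and 302 ± 13.5 TPM (SD, n = 6) at 0.8 mM.

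**Figure D1:**
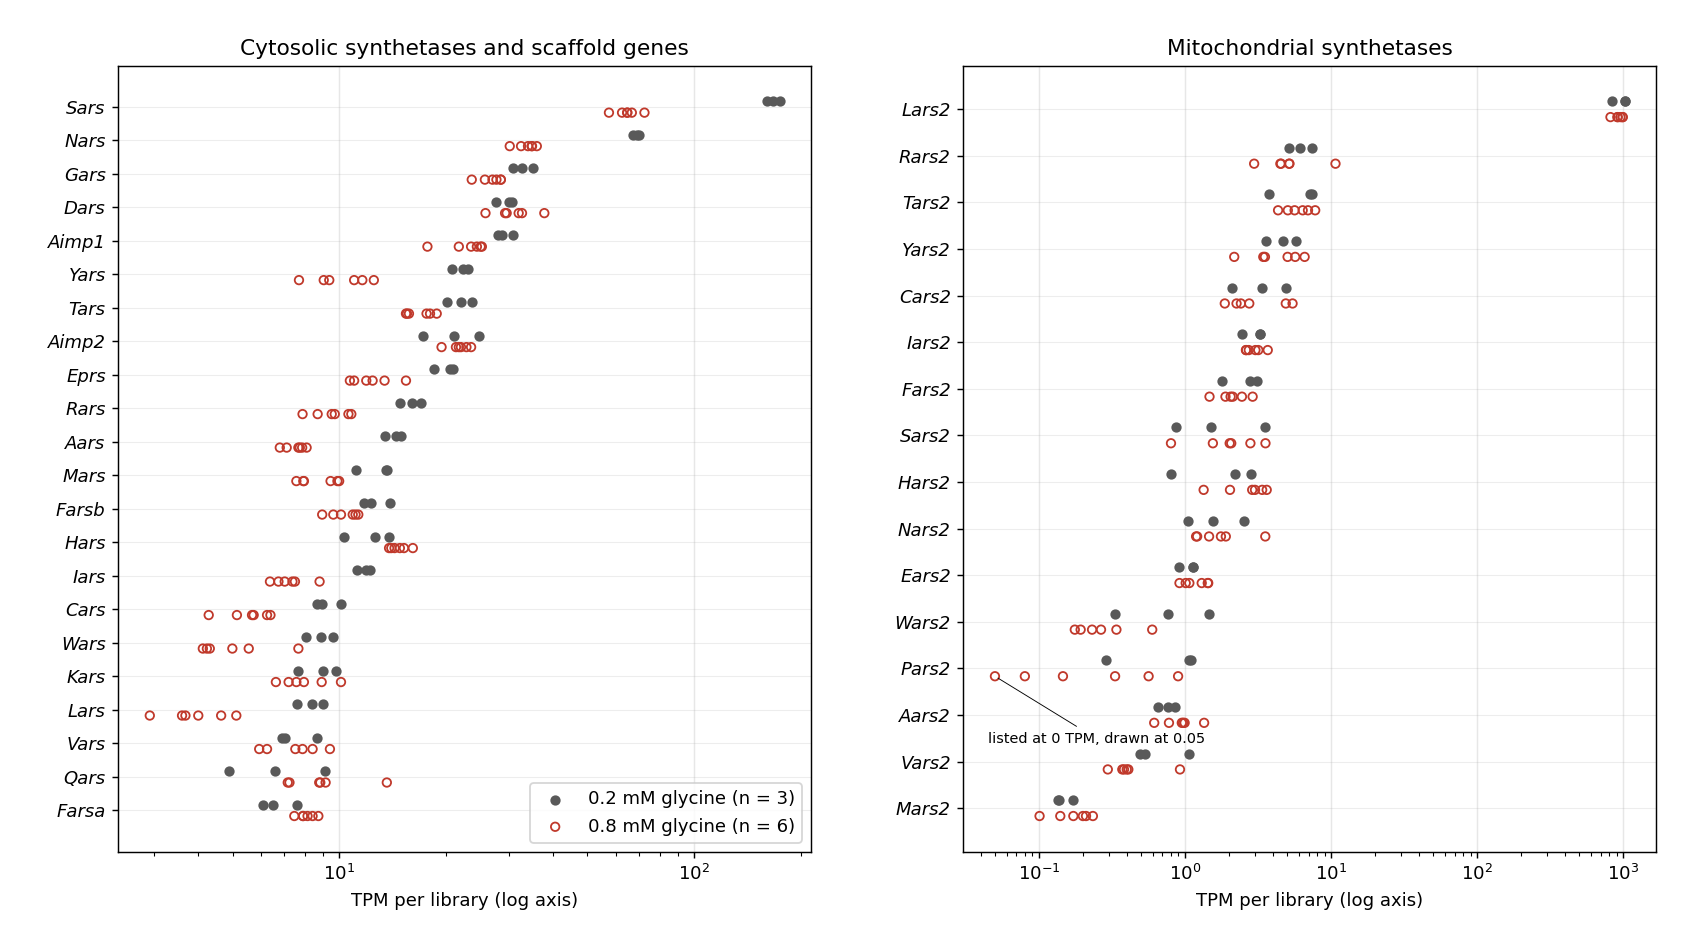
TPM of each gene in each library on log axes, with 0.2 mM glycine as filled grey points (n = 3) and 0.8 mM as open red circles (n = 6), genes ordered by their mean at 0.2 mM. Sars leads the left panel at 160 to 174 TPM against 57.5 to 72.4 TPM, and Lars2 stands apart in the right panel at 838 to 1020 and 815 to 989 TPM, where the other 15 mitochondrial genes average 0.148 to 6.24 TPM at 0.2 mM.

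Promoter sequences were searched for letters of a composite C/EBP-ATF element, at which ATF4 with its partners is known to act. The falls above were known when the search was made. RefSeq promoters of GRCm38.p6, each the 250 bases before and 50 after a transcript's start, were matched for 29 of the 38 genes; Cars, Hars, Lars, Nars, Rars, Vars, Wars, Hars2 and Pars2 had no entry. The letters TGATGNAA were searched on both strands. They were found in 5 of the 8 cytosolic genes that fell and had an entry, 0 of the 5 cytosolic genes that did not pass, 0 of the 14 mitochondrial genes and 0 of the scaffold genes. Among all 27025 genes with a promoter, 4.51% held the letters. Each line gives a stretch of 30 bases along the gene's strand with the match in capitals, shown as examples of the matches found among the members.
Aars, chr8:111033840-111033869, plus strand: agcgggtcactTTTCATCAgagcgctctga
Gars, chr6:55037960-55037989, plus strand: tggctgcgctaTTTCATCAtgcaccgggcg
Iars, chr13:49682126-49682155, plus strand: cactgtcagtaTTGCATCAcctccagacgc
Tars, chr15:11399655-11399684, minus strand: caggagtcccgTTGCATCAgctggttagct
Yars, chr4:129189895-129189924, plus strand: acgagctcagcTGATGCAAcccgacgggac
Counted from the RefSeq start site, the matches in Gars and Tars began 30 and 15 bases before it. Those in Iars and Yars began 7 and 3 bases after it, and the Aars match shown began 9 bases after it. Of the matches shown, only that in Yars had TGATG on the gene's own strand. Sars, Eprs and Mars fell with no match in this window, and a match is a description of the letters, not a bound site. Cars, Lars, Nars, Rars and Wars fell too but had no promoter entry. Any part of ATF4 in the falls was not tested.

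Gars, the enzyme that charges glycine itself, fell by a small amount. It lies on chromosome 6 (55038007 to 55079500 in GRCm38, GENCODE M21). Its 0.2 mM libraries were at 30.8, 32.7 and 35.1 TPM, and the 0.8 mM libraries ranged from 23.6 over a median of 27.3 to 28.5 TPM. The groups did not overlap, and the level at 0.8 mM was 81.6% of that at 0.2 mM. The log2 fold change was -0.28 ± 0.08 (SE, limma adjusted p = 0.0259), and 19.2% of all genes tested had a lower value. The call was lost without 0.2 mM replicate 2 (adjusted p = 0.0722) and without 0.2 mM replicate 3 (adjusted p = 0.104).

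The 3 genes with the lowest fold changes were Sars, Yars and Nars. Sars charges serine, the amino acid from which cells make glycine, and was the most abundant cytosolic synthetase RNA, on chromosome 3 (108424865 to 108445209). Its libraries held 167, 160 and 174 TPM at 0.2 mM and 57.5 to 72.4 TPM, with a median of 64.8, at 0.8 mM. Every library at 0.8 mM was far below the lowest at 0.2 mM. The log2 fold change was -1.35 ± 0.07 (SE, limma adjusted p = 2.85e-07), with 0.906% of all genes lower. Sars made up 33.5 ± 0.669% (SD, n = 3) of the summed cytosolic TPM at 0.2 mM and 21.5 ± 0.911% (SD, n = 6) at 0.8 mM.

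Nars, the asparagine enzyme, held 67, 69.9 and 69 TPM at 0.2 mM and 30.2 to 36 TPM with a median of 34.4 at 0.8 mM. These libraries did not overlap and lay close together within each group. The log2 fold change was -1.01 ± 0.07 (SE, limma adjusted p = 1.99e-06). Sars and Nars together accounted for 70.0% of the drop in summed cytosolic TPM. Without them the sum was 262 ± 4.88 TPM (SD, n = 3) and 203 ± 8.37 TPM (SD, n = 6), still without overlap.

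Yars, which charges tyrosine, held 23.1, 20.7 and 22.3 TPM at 0.2 mM and 7.69 to 12.5 TPM with a median of 10.2 at 0.8 mM. Each 0.8 mM library lay well under the lowest 0.2 mM library, and the log2 fold change was -1.05 ± 0.14 (SE, limma adjusted p = 0.000225). Aars, the alanine enzyme, held 13.4, 14.9 and 14.4 TPM against 6.79 to 8.08 TPM with a median of 7.7. It fell by 0.84 on the log2 scale (limma adjusted p = 5.09e-05) with a clear gap between the groups. Exosc6 on the same strand shares 14.3% of the Aars exon bases and was at 0 TPM in every library. The part of Exosc6 reads in the Aars value was not tested.

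Wars, the tryptophan enzyme, which is also known to be induced by interferon gamma, held 8.07, 9.62 and 8.9 TPM at 0.2 mM and 4.12 to 7.66 TPM with a median of 4.65 at 0.8 mM. Its 0.8 mM replicate 4 came close to the 0.2 mM group without reaching it, and the log2 fold change was -0.71 ± 0.17 (SE, limma adjusted p = 0.00988). Cars, the cysteine enzyme, held 8.95, 8.62 and 10.1 TPM against 4.28 to 6.39 TPM with a median of 5.7. The groups did not overlap, and Cars fell by 0.64 on the log2 scale (limma adjusted p = 0.00302). Tars, the threonine enzyme, held 22, 20.1 and 23.6 TPM against 15.4 to 18.8 TPM with a median of 16.6. It fell by 0.37 (limma adjusted p = 0.0152) with a narrow gap between the groups, and missed the threshold without 0.2 mM replicate 1 (adjusted p = 0.0535) or replicate 3 (adjusted p = 0.0696).

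Among the 8 cytosolic synthetases of the multisynthetase complex, 5 fell, 0 rose and 3 did not pass, beside 9.81% that fell among all genes. The median log2 fold change in the complex was -0.56. Of the 12 outside it, 8 fell and 4 did not pass, with a median of -0.50. The difference between these sets was not tested. Lars, the leucine enzyme of the complex, held 8.36, 9.01 and 7.58 TPM at 0.2 mM and 2.92 to 5.12 TPM with a median of 3.84 at 0.8 mM. Its level at 0.8 mM was 48% of that at 0.2 mM, without overlap, and its log2 fold change was -0.91 ± 0.15 (SE, limma adjusted p = 0.000864). Rars, for arginine, held 17, 16 and 14.8 TPM against 7.87 to 10.8 TPM with a median of 9.6. It fell by 0.69 on the log2 scale (limma adjusted p = 0.000778), again without overlap.

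Eprs, the fused enzyme for glutamate and proline, held 20.9, 20.5 and 18.5 TPM at 0.2 mM and 10.7 to 15.4 TPM with a median of 12.1 at 0.8 mM. It fell by 0.65 (limma adjusted p = 0.0018), and its highest 0.8 mM library was replicate 1. Iars, for isoleucine, held 11.2, 11.9 and 12.2 TPM against 6.37 to 8.79 TPM with a median of 7.19. It fell by 0.62 (limma adjusted p = 0.0013) without overlap. A processed pseudogene, Gm4849, matched the Iars transcript over 1656 bases at 96% identity and was listed at 0 TPM on average in both groups.

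Mars, the methionine enzyme of the complex, held 13.6, 11.1 and 13.5 TPM at 0.2 mM and 7.56 to 9.98 TPM with a median of 8.69 at 0.8 mM. It fell by 0.49 (limma adjusted p = 0.0109) without overlap, and missed the threshold without 0.2 mM replicate 1 (adjusted p = 0.0542). Its exons share 68 bases, or 1.99%, with Ddit3 on the opposite strand. Ddit3, which encodes the stress factor CHOP, fell from 171 ± 14.6 TPM (SD, n = 3) to 26.2 ± 4.89 TPM (SD, n = 6). Whether the authors' counting used strand is not given in the sources used here, and the part of Ddit3 reads in the Mars value was not tested.

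**Figure D2:**
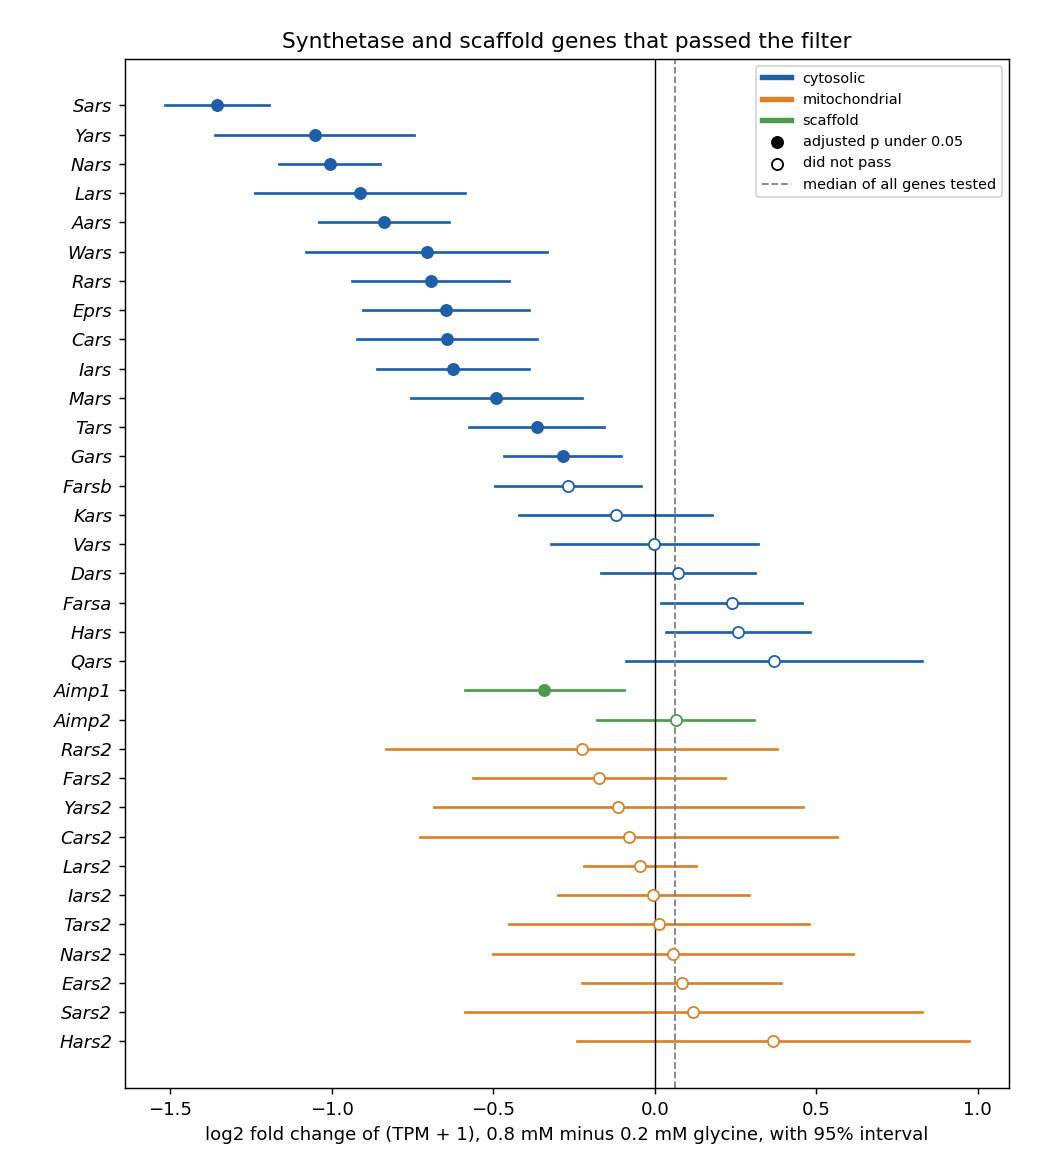
Log2 fold change of (TPM + 1), 0.8 minus 0.2 mM glycine, for the 33 genes tested, with 95% intervals of the limma fit, blue for cytosolic, green for scaffold and orange for mitochondrial genes, filled where the adjusted p was under 0.05. The filled points run from Sars at -1.35 to Gars at -0.28 with Aimp1 at -0.34, and all 11 orange points are open, with intervals that cross 0.

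Aimp1, a scaffold of the complex that is also secreted as a cytokine, held 27.9, 30.8 and 28.8 TPM at 0.2 mM and 17.7 to 25.2 TPM with a median of 23.9 at 0.8 mM. It fell by 0.34 (limma adjusted p = 0.0446), close to the threshold. That call was lost without any 1 of 6 libraries, which were 0.2 mM replicates 1, 2 and 3 and 0.8 mM replicates 2, 3 and 6, and adjusted p then reached 0.148 (limma, 0.2 mM replicate 2 left out). Aimp2, the other scaffold, held 21, 17.2 and 24.8 TPM against 19.4 to 23.5 TPM with a median of 21.9. Its groups overlapped fully and its log2 fold change of 0.06 did not pass (limma adjusted p = 0.718). It was -0.02 with median ratios and -0.04 with quantile normalization. Eif2ak1 on the opposite strand shares 487 bases, 29.4% of the Aimp2 exons, and was at 1.43 and 2.02 TPM on average.

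The 7 cytosolic genes that did not pass were Dars, Farsa, Farsb, Hars, Kars, Qars and Vars, with log2 fold changes between -0.27 and 0.37. Their summed level was 84.2 ± 2.05 TPM (SD, n = 3) at 0.2 mM and 89.0 ± 5.27 TPM (SD, n = 6) at 0.8 mM. Dars, the aspartate enzyme, was the most abundant of them, at 27.6, 30.1 and 30.6 TPM and at 25.8 to 37.8 TPM with a median of 30.8. Its groups overlapped, with a 95% interval of -0.17 to 0.31 for the log2 fold change. For Vars, the valine enzyme, at 6.88 to 8.65 and 5.94 to 9.4 TPM, the interval was -0.32 to 0.32. For Kars, the lysine enzyme of both compartments, it was -0.42 to 0.18, at 7.65 to 9.8 and 6.62 to 10.1 TPM. Qars, for glutamine, held 4.87 to 9.1 TPM and 7.15 to 13.6 TPM with an interval of -0.09 to 0.83, the widest of the cytosolic genes.

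Hars, for histidine, did not pass (log2 fold change 0.26, limma adjusted p = 0.0863), though its groups met without overlap, from 10.3 to 13.8 TPM at 0.2 mM and from 13.8 to 16.1 TPM at 0.8 mM. It was past the threshold without 0.2 mM replicate 3 (adjusted p = 0.0495). Hars and Hars2 lie head to head on opposite strands and share 195 exon bases. Farsa and Farsb encode the catalytic and the other subunit of the cytosolic phenylalanine enzyme, and their values differed in sign. Farsa held 7.58, 6.08 and 6.49 TPM at 0.2 mM and 7.46 to 8.72 TPM with a median of 8.01 at 0.8 mM, with a log2 fold change of 0.24 that did not pass (limma adjusted p = 0.102). Farsb held 11.7, 12.3 and 13.9 TPM against 8.94 to 11.3 TPM with a median of 10.5, and -0.27 did not pass (limma adjusted p = 0.0783). Farsb was past the threshold with median ratios (adjusted p = 0.0305) and quantile normalization (0.0274). It was also past it with TPM rescaled after removal of ribosomal RNA genes and Yam1 (0.0379), or of the 10 genes of highest level (0.041).

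The synthetases form 2 structural classes, which differ in their catalytic fold. Of the 9 cytosolic class I genes, 7 fell and 2 did not pass, beside 9.81% that fell among all genes. The median log2 fold change of class I was -0.64. Of the 10 class II genes, 5 fell and 5 did not pass, with a median of -0.28. Eprs holds a domain of each class and was left out of both. The gene with the lowest fold change, Sars, is in class II. The difference between the classes was not tested.

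The 16 mitochondrial genes had low levels with 1 exception. Lars2, the leucine enzyme, on chromosome 9 (123366927 to 123462666), held 1020, 1020 and 838 TPM at 0.2 mM and 815 to 989 TPM with a median of 934 at 0.8 mM. These libraries overlapped, and the log2 fold change of -0.05 ± 0.08 (SE) did not pass (limma adjusted p = 0.717). The Lars2 transcript shares a stretch of 72 bases at 98.6% identity with Gm15564, which was itself at 0.621 and 0 TPM on average. The TPM do not show where along Lars2 the reads lie, and reads of other RNAs could be counted there. Its level equalled 0.395 to 0.44% of the summed TPM of the ribosomal RNA genes and Yam1 at 0.2 mM and 0.408 to 0.476% at 0.8 mM. The part of such reads in the level of Lars2, its fold change and its ratio to Lars was not tested. As Lars2 outweighs the others, sums over the other 15 mitochondrial genes are given without it. They were 35.9 ± 2.51 TPM (SD, n = 3) at 0.2 mM and 34.4 ± 5.55 TPM (SD, n = 6) at 0.8 mM, with overlap.

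The 10 other mitochondrial genes tested had log2 fold changes between -0.23 for Rars2 and 0.37 for Hars2. Tars2, for threonine, held 3.75, 7.35 and 7.14 TPM at 0.2 mM and 4.33 to 7.77 TPM with a median of 6 at 0.8 mM. Sars2, the mitochondrial serine enzyme, held 0.868, 3.5 and 1.51 TPM against 0.801 to 3.55 TPM with a median of 2.04. Hars2, for histidine, held 0.795, 2.84 and 2.19 TPM against 1.34 to 3.62 TPM. Rars2, for arginine, held 7.4, 6.16 and 5.17 TPM against 2.97 to 10.7 TPM with a median of 4.85. Its highest 0.8 mM library was replicate 1, and the next held 5.18 TPM. Without replicate 1 the log2 fold change of Rars2 was -0.41, which did not pass. The libraries of Sars2 spread about as widely within a group as across groups, and the 95% interval of its log2 fold change was -0.59 to 0.83, while the groups of Hars2 and Rars2 overlapped too. Iars2, for isoleucine, was steadier, at 3.26, 2.46 and 3.24 TPM and at 2.61 to 3.68 TPM, with an interval of -0.30 to 0.29. Rab3gap2 on the opposite strand shares 2034 exon bases, 22.9%, with Iars2.

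Cars2, Ears2, Fars2, Nars2 and Yars2, for cysteine, glutamate, phenylalanine, asparagine and tyrosine, also overlapped between the groups, with adjusted p from limma between 0.527 and 0.898. For 6 of the 11 genes tested the 95% interval lay above -0.56, the cytosolic median, and for the other 5 (Cars2, Fars2, Rars2, Sars2 and Yars2) it reached that value. Standard errors were larger here, with a median of 0.25 against 0.11 for the cytosolic genes. For those 5 a log2 fold change of the median cytosolic size lay within the interval. The log2(TPM + 1) scale understates the change of low genes, so -0.56 stands for a larger proportional fall in a low mitochondrial gene. Whether the intervals of the 6 hold a fall of the same proportion as the cytosolic one was not tested.

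Aars2, Mars2, Pars2, Vars2 and Wars2 stayed under the filter. Wars2, for tryptophan, held 0.762, 1.45 and 0.333 TPM at 0.2 mM and 0.176 to 0.596 TPM at 0.8 mM, and Pars2, for proline, held 1.07, 0.288 and 1.1 TPM against 0 to 0.896 TPM. Both had lower means at 0.8 mM with overlapping libraries. Vars2 was at 0.49 to 1.06 and 0.296 to 0.923 TPM, Aars2 at 0.651 to 0.855 and 0.615 to 1.35 TPM, and Mars2 at 0.135 to 0.171 and 0.101 to 0.234 TPM, so none of the 5 was without overlap.

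**Figure D3:**
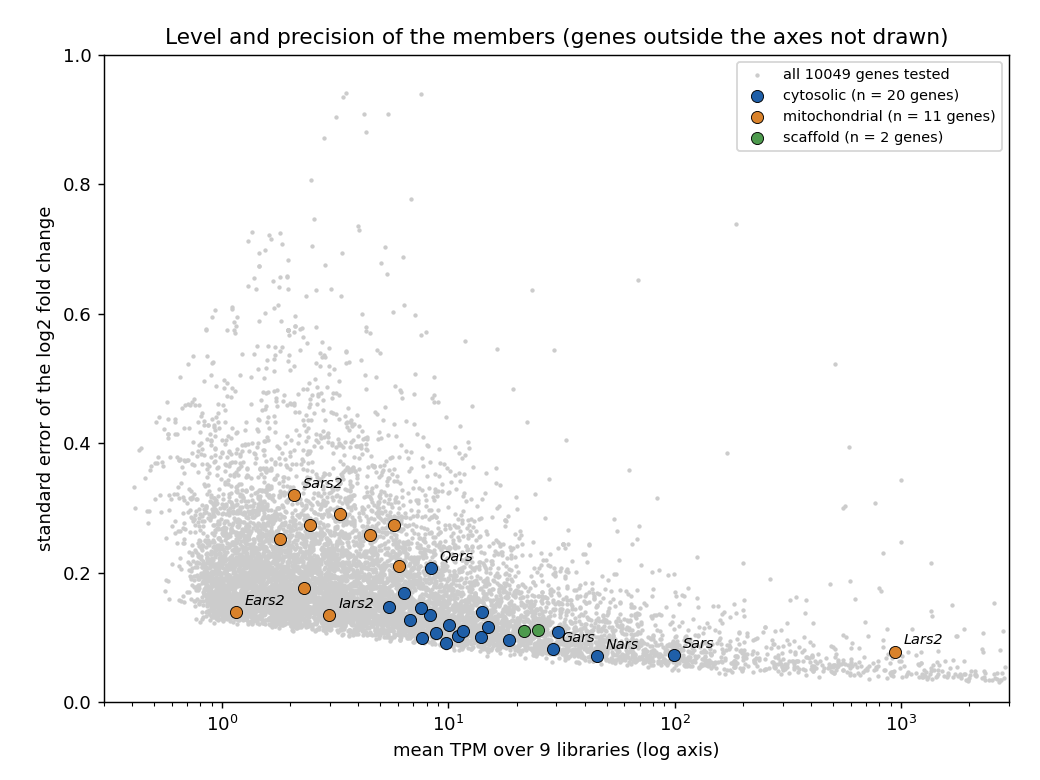
Mean TPM over the 9 libraries on a log axis against the standard error of the log2 fold change, for all genes tested in grey, cytosolic synthetases in blue, mitochondrial in orange and scaffold genes in green. The orange points other than Lars2 sit at mostly lower levels and mostly higher errors, up to 0.32 for Sars2, than the blue points, which reach 0.21 for Qars.

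The cytosolic and the mitochondrial enzyme of the same amino acid were compared as a ratio of TPM within each library, which does not move with the scaling of a library. In 11 of 12 pairs in which both genes were tested, the cytosolic gene had the lower log2 fold change, and Farsa with Fars2 was the exception. Fars2 was set against both Farsa and Farsb. The difference was small for Farsb with Fars2 (-0.096) and for Hars with Hars2 (-0.11). The log2(TPM + 1) scale also understates the change of the low mitochondrial genes in this count. In 4 pairs the ratio was lower at 0.8 mM without overlap, and in 8 the libraries overlapped. No share over other pairs of genes was computed to set beside these counts. Eprs to Ears2 was 18.3, 22.6 and 16.2 at 0.2 mM and 9.15 to 12.3 with a median of 10.5 at 0.8 mM. Iars to Iars2 was 3.42, 4.83 and 3.77 against 2.04 to 3.35 with a median of 2.34. The Eprs ratios left a clear gap between the groups, and the Iars ratios nearly met.

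The other 2 pairs without overlap were those for tyrosine and leucine. Yars to Yars2 was 6.44, 3.62 and 4.75 at 0.2 mM and 1.77 to 3.56 with a median of 2.34 at 0.8 mM, where the nearest libraries almost met. Lars to Lars2 was 0.0082, 0.00882 and 0.00904 against 0.00358 to 0.00517, on a ratio set by the level of Lars2. Sars to Sars2 had the largest difference in log2 fold change, -1.47, but its ratios overlapped, at 192, 45.6 and 115 against 18.8 to 78.2, as Sars2 varied between libraries. Nars to Nars2 also overlapped, at 26.4 to 66.6 and 9.59 to 29.8. The ratio of the summed cytosolic to the summed mitochondrial TPM without Lars2 was 14.3, 12.5 and 14.9 at 0.2 mM and 7.55 to 10.4 at 0.8 mM. No test of these ratios was made.

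**Figure D4:**
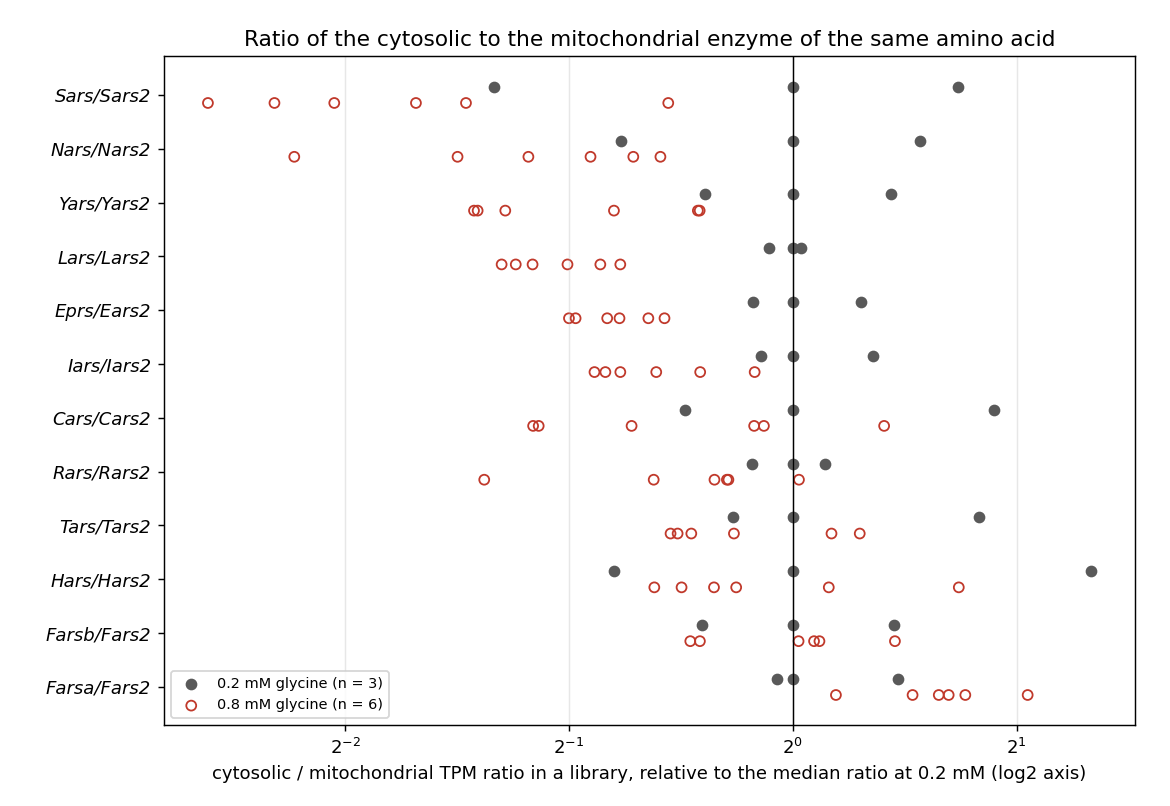
Ratio of cytosolic to mitochondrial TPM for 12 pairs, divided by the median ratio of the 0.2 mM libraries, on a log2 axis, with 0.2 mM as filled grey points (n = 3) and 0.8 mM as open red circles (n = 6). The Eprs, Iars, Lars and Yars pairs separate the groups, while the Sars pair spreads widely at both levels, from 45.6 to 192 and from 18.8 to 78.2 before division.

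Other genes of transfer RNA charging were called at shares near or below those of all genes. Of 13 tested genes for further charging, transamidation and proofreading steps, 2 rose (15.4%, beside 16.7% of all genes), 0 fell (beside 9.81%) and 11 did not pass, with a median log2 fold change of 0.02. Qrsl1, a subunit of the mitochondrial glutamine amidotransferase, rose from 0.476 ± 0.192 TPM (SD, n = 3) to 1.17 ± 0.329 TPM (SD, n = 6) but reached the filter only through 0.8 mM libraries, where it is higher. Prorsd1, named for a domain associated with prolyl-tRNA synthetase, rose from 9.32 ± 0.919 to 13.3 ± 2.17 TPM. Eef1e1, the third scaffold of the multisynthetase complex, held 25.1 ± 3.88 TPM against 22.8 ± 5.32 TPM, which did not pass.

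For transfer RNA synthesis, processing and export, 4 of 35 genes tested rose (11.4%, beside 16.7% of all genes), 1 fell (2.86%, beside 9.81%) and 30 did not pass, with a median of 0.00. Those that rose were Tsen34 of the splicing endonuclease and Polr3d, Polr3g and Polr3k of RNA polymerase III, by 0.52, 0.54, 0.98 and 0.75 on the log2 scale. Of these, Polr3g reached the filter only through 0.8 mM libraries. Rpp38 of ribonuclease P fell from 7.53 ± 0.664 TPM (SD, n = 3) to 5.04 ± 1.21 TPM (SD, n = 6). Xpot, the export receptor for transfer RNA, averaged 12.1 ± 3.22 TPM against 7.94 ± 1.93 TPM, short of the threshold (limma adjusted p = 0.0607).

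Among 7 tested genes of the response to uncharged transfer RNA, 2 fell (28.6%, beside 9.81% of all genes), 0 rose and 5 did not pass, with a median of -0.15. Atf4 fell from 169 ± 19.2 TPM (SD, n = 3) to 69.4 ± 5.61 TPM (SD, n = 6), and Eif2s2, the beta subunit of the initiation factor eIF2, from 82.1 ± 5.52 to 60.9 ± 2.51 TPM. Eif2ak4 itself did not pass, with 1.19 ± 0.345 TPM and 0.942 ± 0.191 TPM. Set against the 65% of cytosolic synthetases that fell, the shares that fell in these lists are descriptions, and no test of a difference between lists was made.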

How the data were processed

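RNA of 9 libraries was sequenced after Trizol extraction and Illumina TruSeq preparation, per the labels' protocols. The authors deposited TPM per gene; per the submitters' processing notes HISAT2 2.0.5, StringTie 1.3.3 and DESeq2 were used with mm10, with roles, annotation and strand not given in the sources used here. TPM keeps no read numbers, so depth is unknown and the precision of a value rests on library-to-library variation. No library duplicated another. In R 4.3.3, limma 3.58.1 (eBayes, trend in the variance) was fitted to log2(TPM + 1) in all 9 libraries. Tests were two-sided, and p-values were adjusted by Benjamini-Hochberg over 10049 genes at a threshold of 0.05. Fold changes on this scale understate the change of low genes. The procedure was tested on simulated data with independent noise in each library. Such data hold no batch and no tie between libraries. Positions and exon overlaps came from GENCODE M21 on GRCm38 (the build that mm10 names), promoters from RefSeq on GRCm38.p6, and similar transcripts (at least 95% identity) from blastn 2.17.0. Every member was named; of other lists, up to 4 genes a direction by smallest p, and Eef1e1, Xpot and Eif2ak4 after their values were seen. Alternatives covered pseudocounts, filters, scaling, the variance model and left-out libraries. Some genes and sequences are not reported here. Members and lists were chosen with earlier results of these data known. Replicate numbers 1 to 3 recur in both groups but were not taken as pairs. Figures were drawn with matplotlib 3.10.9.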

Additional observations from a re-analysis of the deposited data

Results flagged for a closer look

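In the 0.8 mM group, 4 of 59 measures had a single library far above the other 5, by a gap larger, as a share of the group's range, than Dixon's 95% critical value. Chance flags about 1 in 20 groups. Qars was at 13.6 TPM in replicate 2, where the next library held 9.14 TPM. Nars2 was at 3.54 TPM in replicate 2, with the next at 1.9 TPM. Rars2 was at 10.7 TPM in replicate 1, with the next at 5.18 TPM, and Vars2 was at 0.923 TPM in replicate 1, with the next at 0.409 TPM. None of the 4 genes passed the test, and Vars2 was under the filter.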

How the results depend on the processing

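Of the 14 members that fell, 9 kept their call under every one of 22 settings other than the 1.5-fold threshold, and 0 changed sign. Those that lost it under at least 1 setting were Cars, Gars, Mars, Tars and Aimp1. The cytosolic count of 13 that fell was 14 with median ratios or quantile normalization. It was also 14 with TPM without ribosomal RNA genes and Yam1, or without the 10 most abundant genes (the last chosen after seeing the data). It was 12 without Gars and Kars, and 10 when 1.5-fold was also asked. Leaving out each library in turn gave 11 to 13 that fell and 0 to 1 that rose, the 1 being Hars. With 1.5-fold also asked, 1636 of all genes passed, against 2669. The mitochondrial counts were 0 in each direction under every setting, also with all 16 genes tested and no filter. The median cytosolic log2 fold change was -0.64 with median ratios and with quantile normalization. Of the 19 members tested that did not pass, 13 changed sign under at least 1 setting, in 42 of 410 gene and setting pairs, and no sign was called there. Replicate numbers were not taken as pairs. Deviations from the group means correlated at 0.02, 0.03 and 0.08 for the same numbers, and not every library correlated best with its own number. With so few libraries these values cannot exclude a pairing. With the library number as a replicate block, 9 cytosolic genes fell (1782 of all genes passed), against 12 (2066 of all) in the same 6 libraries without it. Without the block those 6 libraries also lost Gars (adjusted p = 0.0622). TPM keeps no depth, so no limit of detection is given.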

Other observations

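The subunit genes of the phenylalanine enzyme, which make 1 protein complex together, were set against each other within each library. The ratio of Farsa to Farsb TPM was 0.647, 0.496 and 0.465 at 0.2 mM and 0.708 to 0.976 with a median of 0.745 at 0.8 mM, so every library at 0.8 mM was higher. The ratio was chosen after the values of both genes were seen and was not tested.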
